A study of Arabidopsis thaliana with 16 samples.

Results

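The 4 arrays described here hold root zone 4 (2 arrays) and root zone 3 (2 arrays) of Arabidopsis thaliana seedlings on iron-deficient (-Fe) medium, out of 16 arrays in the series. They were chosen by their titles, which give the zone, the medium and the replicate number. All groups were roots of the ecotype Columbia, with no mutant, transgene or sorted cell type, grown for 5 days on standard medium (iron supplied as Fe(III)-EDTA) before transfer. The -Fe medium carried no iron salt and held 0.3 mM Ferrozine, an iron chelator, and both -Fe groups were collected 24 h after transfer. Each root was divided by hand into 4 pieces, and about 15 roots were pooled for a replicate. Zone 4 was a piece of about 1 mm in which root hairs emerge, and zone 3 the piece of 200 to 300 µm just below it, above the end of the meristem. The same pair of zones on standard medium (2 arrays of zone 4 and 2 of zone 3) serves below to show where the step on -Fe medium differs. The sample descriptions give 1 h after transfer for those standard roots and the treatment protocol gives 24 h, so a contrast between media may also be a contrast of times.

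Cells of a root lie in order of age along its axis. In the elongation zone they lengthen quickly, which needs loosening of the primary wall by expansins, xyloglucan endotransglucosylases (XTHs) and pectin-modifying enzymes, new wall material, and cortical microtubules that guide its deposition. In the differentiation zone elongation ends, root hairs form, and vascular and endodermal cells mature. Roots of Arabidopsis that lack iron switch on basic helix-loop-helix (bHLH) regulators, acidify and reduce iron at the surface, and release coumarins, phenolic compounds that mobilise iron from the medium.

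Values are array intensities on a linear scale, which the authors had scaled to a common mean. Differences are zone 4 minus zone 3 in log2(intensity + 7.73), tested with limma over 16505 probe sets, and "passed" means an adjusted p under 0.05. The offset makes the difference of a dim gene smaller than its true change, and values below it lie among the lowest 20% of all intensities. Median intensity was 62.5 and 59.1 on the zone 4 -Fe arrays and 62.3 and 51.3 on the zone 3 -Fe arrays. The replicates correlated over probe sets at r = 0.97 in zone 4 on -Fe medium and 0.97 in zone 3 on -Fe medium, and at 0.95 in zone 4 and 0.92 in zone 3 on standard medium. The 3′ to 5′ intensity ratio of the actin control probe sets, which rises as RNA breaks down, was 10.2 and 6.08 in zone 4 and 7.26 and 8.51 in zone 3 on -Fe medium, against 3.93 to 7.43 on the other 12 arrays. On zone 4 -Fe replicate 1, the array with 10.2, the 3′ to 5′ ratio was 1.48 for GAPDH and 3.21 for ubiquitin. Both of these controls went higher elsewhere, to 2.17 (GAPDH, zone 1 -Fe replicate 2) and 6.45 (ubiquitin, zone 1 standard replicate 1). The 25S ribosomal RNA control read 348 on zone 4 standard replicate 2, but 2953 or more on every other array. The cause was not tested. The labels do not say that the pools came from separate cultures, so the p-values measure only the spread between these pools. All arrays are of whole root pieces, in which fewer cells of a type and less RNA per cell cannot be told apart.

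Zone 4 differed from zone 3 over a large part of the measured genes. Of the 16505 probe sets, 2568 passed (15.6%). Among them 1125 were higher in zone 4 (6.82%) and 1443 were lower (8.74%), and 343 of the higher and 394 of the lower differed by more than 2 on the log2 scale, a 4-fold change. Both zone 4 arrays lay above both zone 3 arrays for 5376 probe sets (32.6%) and below both for 4430 (26.8%), so lack of overlap alone says little with 2 arrays a group. With 1 probe set a gene, 1372 of 9091 named genes passed (15.1%), 558 higher (6.14%) and 814 lower (8.95%), and the median difference of all named genes was 0.05. The call counts depend on each array, all on -Fe medium here and below unless standard medium is named. There were 1540 calls without zone 4 replicate 1, which is also the array with the actin ratio of 10.2, 837 without zone 4 replicate 2, 1148 without zone 3 replicate 1 and 1256 without zone 3 replicate 2.

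The position of these changes on the longer axis of the -Fe root differed between the directions. Of the 1125 probe sets that were higher in zone 4 than in zone 3, 176 (15.6%) had their highest mean of all 4 zones at the tip, in zone 1, 51 (4.53%) in zone 2 and 898 (79.8%) in zone 4. Of the 1443 that were lower in zone 4, 218 (15.1%) were highest in zone 1, 442 (30.6%) in zone 2 and 783 (54.3%) in zone 3. Over all probe sets tested the highest mean lay in zone 1 for 38.9%, in zone 2 for 15.6%, in zone 3 for 18.3% and in zone 4 for 27.3%. These shares are a description, since the choice of direction already bars zone 3 or zone 4 as the highest.

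Coumarin genes of the iron-deficiency response were among the largest rises. AT3G12900, which encodes scopoletin 8-hydroxylase, the enzyme that makes the coumarin fraxetin, had an intensity of 4171 and 1326 in zone 4 against 82.6 and 2.70 in zone 3. The 2 zone 3 arrays themselves were far apart, but both lay more than 10-fold below the lower zone 4 array. The difference was 6.27 ± 0.83 (SE) on the offset log2 scale (limma adjusted p = 0.00070), the largest of the named genes there. With no offset it was 7.3, below the 7.42 of AT1G14120, and no fold is given because 1 zone 3 array lay below the offset. BGLU42, a beta-glucosidase that frees scopoletin from its glucoside, stood at 5047 and 2834 in zone 4 against 523 and 156 in zone 3. Its groups did not overlap, and it rose by 3.69 ± 0.45 (adjusted p = 0.00046). Of the 4 coumarin genes tested these 2 passed, against 6.14% of all named genes, and both passed whichever of the 4 arrays was left out. The other two, AT3G13610, the feruloyl-CoA hydroxylase that opens the pathway, and AT1G28680, the coumarin synthase, had differences of 1.86 (adjusted p = 0.20) and 0.52 (adjusted p = 0.25). AT3G13610 measured 5810 and 3361 in zone 4 and 1619 and 902 in zone 3, so its arrays did not overlap although the test was not passed.

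Some other genes known from iron-deficient roots also rose. UGT72E1, a glucosyltransferase of phenolic compounds, measured 3664 and 2710 in zone 4 against 279 and 74.4 in zone 3, a difference of 4.36 ± 0.62 (adjusted p = 0.00097). AT3G61930, a short protein of unknown function, measured 4171 and 2713 in zone 4 against 429 and 131 in zone 3 (difference 3.78, adjusted p = 0.0013). AT1G73120 gave 5534 and 3775 in zone 4 against 778 and 443 in zone 3 (difference 2.94, adjusted p = 0.0013). In all of these the lower zone 4 array was well above the higher zone 3 array. AT5G02580 also passed, at 184 and 98.3 in zone 4 and 40.9 and 18.7 in zone 3 (difference 1.99). In all, 4 of the 10 tested genes on this list rose, against 6.14% of all named genes, and none fell, with a median of 0.95, and 3 passed without zone 3 replicate 2 or zone 4 replicate 1. The list was written with earlier results of these data known.

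Of the regulators of the iron response, 2 rose. AT1G18910, known as BTSL2, an E3 ligase that holds the response down, measured 1790 and 1038 in zone 4 against 513 and 449 in zone 3 and rose by 1.49 ± 0.28 (adjusted p = 0.0039). ILR3, a bHLH factor upstream of the response, measured 1386 and 1594 in zone 4 against 604 and 862 in zone 3 and rose by 1.03 (adjusted p = 0.013). These 2 of 10 tested regulators passed, against 6.14% of all named genes that rose, none fell, and the median was 0.77. Without zone 3 replicate 1 or zone 4 replicate 2 only 1 of them passed.

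The remaining regulators did not pass. BHLH101, which acts with the master regulator of uptake, measured 1118 and 1265 in zone 4 and 359 and 658 in zone 3, a difference of 1.28 (adjusted p = 0.11). It passed with 2 times the offset (adjusted p = 0.041) and in a fit of the 4 arrays alone (0.030), where AT1G74770 (0.011) and AT3G58060 (0.045) passed too. AT1G74770, known as BTSL1, measured 3769 and 3300 in zone 4 and 1665 and 1721 in zone 3 (difference 1.06, adjusted p = 0.19). Its second probe set gave 0.68 (adjusted p = 0.59). PYE, a repressor of iron storage and transport genes, had 446 and 383 in zone 4 and 268 and 297 in zone 3 (difference 0.54, adjusted p = 0.32). AT1G47400, which encodes an IRON MAN signalling peptide, had 320 and 278 in zone 4 and 484 and 304 in zone 3 (difference -0.36, adjusted p = 0.54). Thus BHLH101, AT1G74770 and PYE lay higher on both zone 4 arrays without passing, and the arrays of AT1G47400 overlapped between the zones. Both zone 4 arrays lay above both zone 3 arrays for 32.6% of all probe sets tested, so this alone says little. AT3G58060, a metal transporter of the MTP family, had 1088 and 651 in zone 4 and 432 and 362 in zone 3 (difference 1.08, adjusted p = 0.20). It was the only tested member of 28 listed iron uptake and transport genes, because the annotation used here names few of them, and ferritins were not analysed here for the same reason.

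**Figure D1:**
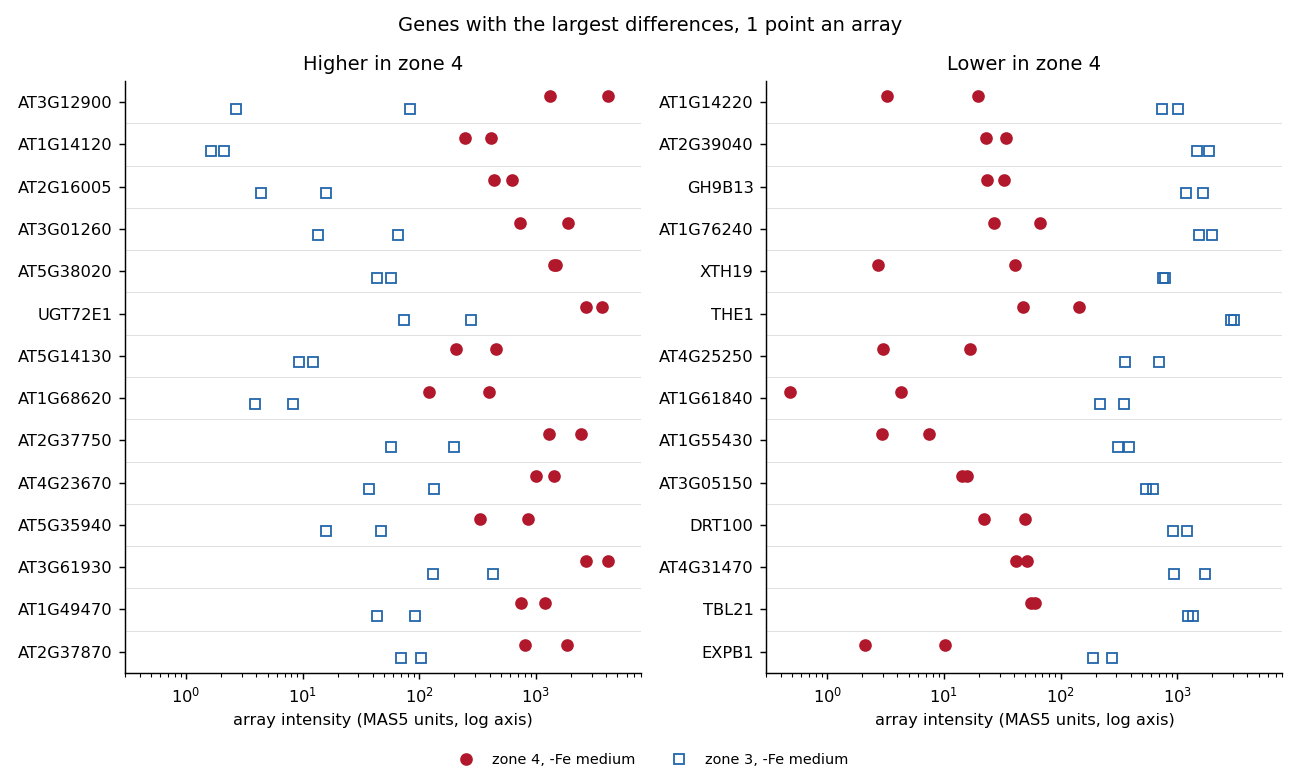
Array intensity (MAS5 units, log axis) of the 14 genes with the largest rise and the 14 with the largest fall in zone 4 against zone 3 on -Fe medium, 1 point an array; filled red circles are zone 4 and open blue squares zone 3. The genes were chosen for arrays that do not overlap, and the spread between replicates is widest at low intensity, as for AT3G12900 in zone 3 (82.6 and 2.70).

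Most of the tested genes that inactivate auxin were also higher in zone 4. AT1G14120, known as DAO2, a dioxygenase of the family that oxidises auxin, measured 245 and 414 in zone 4 against 1.63 and 2.13 in zone 3, both below the offset. It rose by 5.09 ± 0.70 (adjusted p = 0.00084). Its neighbour AT1G14130, known as DAO1, the main auxin oxidase of seedlings, measured 184 and 209 in zone 4 against 49.9 and 41.7 in zone 3 and rose by 1.94 (adjusted p = 0.0040). GH3.17, an enzyme that joins auxin to glutamate, measured 473 and 1168 in zone 4 against 146 and 173 in zone 3 (difference 2.17, adjusted p = 0.0051), and GH3.1 rose by 1.88. No array of one zone overlapped with the other for any of these 4 genes, as for 32.6% of all probe sets in this direction. For AT1G14120 this was a condition of its choice among the largest rises. These 4 rises came from 6 tested genes of the list (median 1.93), against 6.14% of all named genes. GH3.3 (1.92, adjusted p = 0.24) and WES1 (0.24) did not pass. Without zone 4 replicate 2 the count was 2, and without zone 3 replicate 1 or zone 4 replicate 1 it was 3.

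Sugar transporters of the SWEET family let sugars pass down their gradient. Of 6 tested members 3 rose, against 6.14% of all named genes, and none fell (median 1.49). SWEET11, which loads the phloem in leaves, measured 863 and 959 in zone 4 against 183 and 188 in zone 3 and rose by 2.25 ± 0.43 (adjusted p = 0.0046). SWEET2, a vacuolar member of the root, measured 90.3 and 413 in zone 4 against 20.16 and 21.6 in zone 3 (difference 2.83, adjusted p = 0.0056). SWEET3 measured 87.8 and 192 in zone 4 against 22.9 and 14.9 in zone 3 (difference 2.39, adjusted p = 0.016). Replicates of SWEET2 and SWEET3 in zone 4 were further apart than those of SWEET11. Without zone 4 replicate 2 only SWEET11 passed, and without either zone 3 array 2 of the 3 did. SWEET1, SWEET16 and SWEET17 had differences of 0.73, 0.72 and 0.37 that did not pass.

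The other large rises came from several families. Of the 3 tested lectin genes with a JAL symbol 2 rose, JAL22 by 3.65 and JAL33 by 3.55, against 6.14% of all named genes. JAL34 measured 9373 and 9848 in zone 4 and 6497 and 8132 in zone 3 (difference 0.40, adjusted p = 0.13). JAL33 lost its call whichever array was left out, and JAL22 lost it without zone 3 replicate 2 or zone 4 replicate 2. AT5G35940 measured 332 and 852 in zone 4 against 15.9 and 46.5 in zone 3 (difference 3.92, adjusted p = 0.0026), and it averaged 1824 in zone 1 and 1377 in zone 2. It was thus low in zone 3 alone of the 4 zones. WRKY22, a transcription factor of immune signalling, measured 226 and 285 in zone 4 against 43.1 and 37.8 in zone 3 and rose by 2.44 ± 0.34 (adjusted p = 0.00090). It was the only one of 5 tested WRKY factors to pass, against 6.14% of all named genes that rose.

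Further genes of the 14 largest rises carry no symbol in the annotation. AT2G16005 measured 433 and 623 in zone 4 against 4.42 and 16 in zone 3 (difference 4.96, adjusted p = 0.00014). AT3G01260 had 1899 and 723 in zone 4 against 66.0 and 13.5 in zone 3 (difference 4.90, adjusted p = 0.0043). AT5G38020, of a family of methyltransferases, had 1426 and 1501 in zone 4 against 57.2 and 43.2 in zone 3 (difference 4.68, adjusted p = 0.0055). All 3 passed whichever array was left out. The differences of AT1G68620, AT2G37750, AT4G23670, AT1G49470 and AT2G37870 lay between 3.73 and 4.07. Of these, AT2G37750 did not pass without zone 4 replicate 2 (adjusted p = 0.12) or zone 3 replicate 1 (0.12). AT4G23670 did not pass without zone 4 replicate 2 (0.092) or zone 3 replicate 2 (0.10), and AT1G49470 without zone 4 replicate 1 (0.066) or zone 3 replicate 2 (0.078).

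Several families of wall-modifying enzymes had members that fell steeply. XTH19, a xyloglucan endotransglucosylase that splits and rejoins xyloglucan chains, measured 41.0 and 2.72 in zone 4 against 785 and 754 in zone 3 and fell by 5.11 ± 0.69 on the log2 scale (adjusted p = 0.00076). XTH18 measured 201 and 69.2 in zone 4 against 1346 and 1982 in zone 3 (difference -3.69), and XTH16 measured 33.3 and 24.5 in zone 4 against 478 and 349 in zone 3 (difference -3.52). XTH33 and XTH21 fell by 3.1 and by 2.57. In all, 5 of 7 tested XTH genes fell, against 8.95% of all named genes, and none rose (median -3.1). The summed intensity of the 7 was 924 and 660 in zone 4 and 5426 and 6084 in zone 3. Without zone 3 replicate 2 or zone 4 replicate 2, 3 of them passed.

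Expansins, which loosen walls without breaking bonds, were divided. EXPB1 measured 10.1 and 2.12 in zone 4 against 188 and 278 in zone 3 and fell by 4.16 (adjusted p = 0.0057). Without zone 4 replicate 2 its adjusted p was 0.062. EXPA8 (-2.44) and EXLA2 (-2.38) also fell, whereas EXPA4 rose by 1.66 at low intensity, with 33.4 and 36.2 in zone 4 against 7.52 and 4.11 in zone 3. Of 15 tested expansins 3 fell and 1 rose (median -0.17), against 8.95% and 6.14% of all named genes, so the rise is near the general share. None of the 4 passed without zone 4 replicate 2, and EXPA4 lost its call whichever array was left out.

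Pectin, the gel of the primary wall, is altered by lyases that split it and by methylesterases that remove its methyl groups. AT3G07010, a pectate lyase gene, measured 62.4 and 29.9 in zone 4 against 692 and 625 in zone 3 (difference -3.70, adjusted p = 0.00073). Another, AT5G48900, measured 98.6 and 50.4 in zone 4 against 676 and 1189 in zone 3 (difference -3.53, adjusted p = 0.0033). In total 5 of 13 tested pectate lyases fell and 1 rose (median -1.22), against 8.95% and 6.14% of all named genes. The one that rose, AT3G53190, measured 156 and 190 in zone 4 against 72.1 and 55.1 in zone 3 (difference 1.35), and it averaged 1924 in zone 1, so its level in zone 4 was far below that at the tip. Of 20 tested pectin methylesterases 6 fell and 1 rose (median -0.33), against the same shares of all named genes. AT5G04970 had 15.4 and 4.75 in zone 4 against 228 and 253 in zone 3 (difference -3.87), and AT2G47550 (-3.79) and AT3G10720 (-3.54) came next. Leaving out single arrays left 3 or 4 pectate lyases and 5 to 7 methylesterases that fell. The methylesterase gene AT3G05620 (1.77) lost its call whichever array was left out. AT4G25250, of the family of proteins that inhibit methylesterases, measured 2.99 and 16.9 in zone 4 against 356 and 705 in zone 3 and fell by 4.97.

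Several genes for enzymes that build and decorate wall polymers fell as well. All 6 tested cellulose synthase-like genes lay below 0 and 5 passed (median -1.40), against 8.95% of all named genes that fell. CSLC04, which makes the backbone of xyloglucan, measured 160 and 147 in zone 4 against 715 and 485 in zone 3 (difference -1.89, adjusted p = 0.011). CSLD2, known for its role in root hair growth, measured 1358 and 1150 in zone 4 against 2761 and 3093 in zone 3 (difference -1.22). No member of the 5 passed without zone 4 replicate 2 or zone 3 replicate 1, and 3 passed without either of the other two. TBL genes form a family that acetylates wall polymers. Of 18 tested, 7 fell and 2 rose (median -0.83), against 8.95% and 6.14% of all named genes. TBL21 measured 60.8 and 55.4 in zone 4 against 1249 and 1361 in zone 3 and fell by 4.32 ± 0.66 (adjusted p = 0.0015), while TBL36, at 95.2 and 111 in zone 4 against 17.5 and 20.4 in zone 3, rose by 2.05. The number of TBL genes that fell was 3 or 4 when an array was left out, and TBL36 did not pass without zone 3 replicate 1, zone 3 replicate 2 or zone 4 replicate 2. GH9B13, an endoglucanase of glycoside hydrolase family 9, measured 32.6 and 23.3 in zone 4 against 1196 and 1661 in zone 3 and fell by 5.32 ± 0.40 (adjusted p = 2.1e-05). It was the only one of 11 tested members of that family to pass, near the 8.95% of all named genes that fell. COB, which orients cellulose, had 1871 and 1582 in zone 4 and 2186 and 2058 in zone 3 (difference -0.30, adjusted p = 0.36).

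The wall sensor THE1, a receptor kinase that restrains growth when cellulose is defective, was among the steepest falls. It measured 143 and 47.5 in zone 4 against 2908 and 3102 in zone 3 and fell by 5.04 ± 0.50 (adjusted p = 0.00015), a call that passed whichever array was left out. FER, its relative that receives RALF peptides, measured 1228 and 1229 in zone 4 against 2635 and 2323 in zone 3 and fell by 1.01 (adjusted p = 0.0080). It did not pass without zone 3 replicate 1 or zone 4 replicate 2. The other 5 of 7 tested kinases of this family did not pass, with differences from -0.45 to 1.33. Thus 2 of the 7 fell, against 8.95% of all named genes, and the median of the 7 was 0.19.

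Many microtubule genes fell. TUB1, a beta-tubulin, measured 198 and 216 in zone 4 against 1885 and 2427 in zone 3 and fell by 3.32 ± 0.51 (adjusted p = 0.0016). TUB5 measured 209 and 160 in zone 4 against 1127 and 1488 in zone 3 (difference -2.77, adjusted p = 0.0019). TUA6, TUB9 and TUB6 fell by 1.35, by 0.92 and by 0.78. All 7 tested tubulin genes lay below 0, and 5 passed (median -0.92), against 8.95% of all named genes that fell. TUB6 was at the threshold (adjusted p = 0.050) and lost its call whichever array was left out, and 3 or 4 of the 7 passed then. IQD and TRM proteins sit on microtubules. Of their 19 tested genes 10 fell, against 8.95% of all named genes, and none rose (median -1.11). IQD19 measured 53.3 and 47.0 in zone 4 against 506 and 490 in zone 3 (difference -3.13, adjusted p = 0.0010), and TRM26 measured 39.4 and 47.6 in zone 4 against 371 and 331 in zone 3 (difference -2.81). Between 4 and 8 of the 19 passed when an array was left out, the fewest without zone 4 replicate 2.

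**Figure D2:**
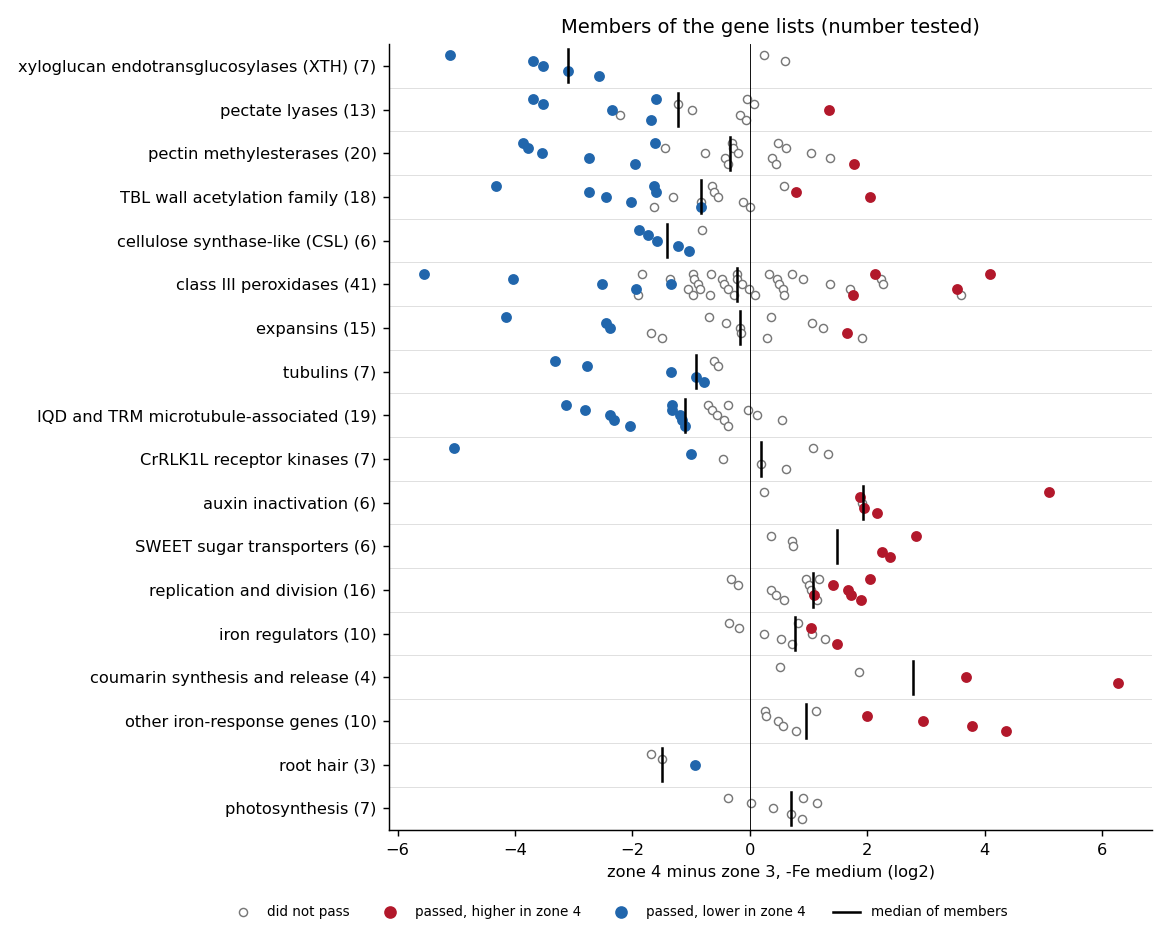
Difference between zone 4 and zone 3 on -Fe medium (log2, x axis) of each tested member of 18 gene lists (number tested in brackets); filled points passed (red higher, blue lower in zone 4), open points did not, black bars are the median of a list, and height within a row only separates points. XTH, tubulin and IQD and TRM genes passed only on the left, the auxin inactivation, SWEET and iron lists only on the right, and peroxidases lay on both sides.

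Class III peroxidases, which cross-link or loosen walls with hydrogen peroxide, moved both ways. Of 41 tested, 4 rose and 5 fell (median -0.23), with 15.1% of all named genes as the background. AT2G39040, known as PER24, measured 34.0 and 23.0 in zone 4 against 1489 and 1881 in zone 3 and fell by 5.55 ± 0.52 (adjusted p = 0.00013). AT4G16270, known as PER40, measured 16.3 and 10.7 in zone 4 against 310 and 369 in zone 3 (difference -4.04, adjusted p = 0.00094). In the other direction AT5G14130, known as PER55, measured 206 and 451 in zone 4 against 12.3 and 9.27 in zone 3 and rose by 4.09 (adjusted p = 0.010). AT4G36430, known as PER49, measured 1093 and 520 in zone 4 against 93.0 and 36.0 in zone 3 (difference 3.52, adjusted p = 0.013). AT5G14130 did not pass without zone 4 replicate 2 (adjusted p = 0.10), zone 3 replicate 1 (0.052) or zone 3 replicate 2 (0.059). When an array was left out, 0 to 2 peroxidases rose and 2 to 5 fell, the fewest falls being those without zone 4 replicate 2. The summed intensity of the 41 was 69900 and 65279 in zone 4 and 76256 and 81932 in zone 3.

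A family with members of both directions was that of the methionine sulfoxide reductases B, which repair oxidised methionine. MSRB9 measured 307 and 390 in zone 4 against 4066 and 4457 in zone 3 and fell by 3.59 ± 0.26 (adjusted p = 1.9e-05). MSRB6, at 806 and 1815 in zone 4 against 124 and 200 in zone 3, rose by 2.88 (adjusted p = 0.0027), and MSRB5, at 2982 and 2415 in zone 4 against 919 and 693 in zone 3, by 1.74. All 4 tested members passed, with MSRB3 (1.10) losing its call whichever array was left out, and 1 or 2 members rose then. Over all named genes 15.1% passed in either direction. The probe sets of close relatives such as these reductases can share signal. Among glutathione S-transferases GSTU28 measured 189 and 124 in zone 4 against 2008 and 2085 in zone 3 and fell by 3.67, while GSTL3 and GSTU16 rose by 1.56 and 1.23. Neither GSTL3 nor GSTU16 passed without a zone 3 array. UDP-glycosyltransferases gave 5 rises and 3 falls of 34 tested (median 0.41), against 6.14% and 8.95% of all named genes, with UGT72E1 the largest, and 1 to 4 rises and 0 to 2 falls when an array was left out.

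The steepest fall of all named genes on the offset scale was that of AT1G14220, of the RNase T2 family, which measured 19.8 and 3.26 in zone 4 against 740 and 1008 in zone 3. It fell by 5.65 ± 0.57 (adjusted p = 0.00015). AT1G76240 (-5.11), the C1-domain genes AT1G61840 (-4.83) and AT1G55430 (-4.81), the sugar transporter gene AT3G05150 (-4.69), DRT100 (-4.68), which encodes a leucine-rich repeat protein, and AT4G31470 (-4.57) completed the 14 largest falls. AT3G05150 measured 14.3 and 15.8 in zone 4 against 538 and 623 in zone 3. Of the 14, all but EXPB1 passed whichever array was left out.

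Some genes of DNA replication and cell division, which are most active in the meristem, were higher in zone 4 than in zone 3. Of 16 tested, 6 rose, against 6.14% of all named genes, and none fell, with a median of 1.07, but only 1 to 4 rose when an array was left out. TOPII, a topoisomerase of dividing cells, measured 92.4 and 108 in zone 4 against 28.7 and 15.6 in zone 3 (difference 1.89, adjusted p = 0.0036), and averaged 1024 in zone 1 and 200 in zone 2. UBC20, a ubiquitin-conjugating enzyme of mitosis, measured 259 and 247 in zone 4 against 72.5 and 69.5 in zone 3 (difference 1.73), and averaged 1912 in zone 1. AUR1, a mitotic kinase, measured 236 and 297 in zone 4 against 108 and 133 in zone 3 (difference 1.10), and averaged 1072 in zone 1. The zone 4 levels were thus above those of zone 3 but below those at the tip. 3xHMG-box2 (2.04), SKP2A (1.66) and AT1G63100 (1.42) also passed. Summed over the 16, intensity was 2000 and 2325 in zone 4 against 1067 and 1197 in zone 3. Without zone 3 replicate 2 or zone 4 replicate 2 only 1 of them passed, without zone 4 replicate 1 there were 3, and without zone 3 replicate 1 there were 4. None of the 5 tested histone genes passed.

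Markers were used to check the labels of the zones and to look for other cells in the pieces. All 3 tested root hair genes were measured well above the offset in both zones, and each lay lower on both zone 4 arrays, where hairs emerge. Over all probe sets tested 26.8% lay lower in this way. EXPA7, a root hair expansin, measured 2246 and 1197 in zone 4 and 4131 and 5191 in zone 3 (difference -1.49, adjusted p = 0.24). EXPA18 measured 1845 and 797 in zone 4 and 3692 and 4196 in zone 3 (difference -1.69, adjusted p = 0.22). Neither overlapped between the zones, and neither passed. SCN1, which limits hair initiation to 1 site in a cell, measured 938 and 1109 in zone 4 against 1743 and 2221 in zone 3 and fell by 0.94 (adjusted p = 0.026), a call that was lost whichever array was left out and with median centring. EXPA7 averaged 29.7 in zone 1 and 49.3 in zone 2, so this gene separated zones 3 and 4 from the tip. None of the 3 root hair genes separated zone 4 from zone 3 in the order of the labels.

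Of 4 tested cell cycle genes, markers of the meristem, 1 rose (median 0.80), against 6.14% of all named genes. The 1 call was lost whichever array was left out, and the median of the 4 then lay between 0.48 and 0.96. Markers of the remaining tissues mostly did not pass. The exception was the phloem list, whose only tested member, SWEET11, rose by 2.25 as given above and passed whichever array was left out. Casparian strip genes of the endodermis gave 0 of 3 passed, xylem secondary wall genes 0 of 2, and the single tested suberin and lignin genes did not pass, so the vascular and endodermal lists rest on few members. AT1G61590, a kinase of the Casparian strip, measured 1729 and 1868 in zone 4 and 1040 and 1142 in zone 3 (difference 0.72, adjusted p = 0.57). HCT, an enzyme of lignin synthesis, measured 6184 and 4449 in zone 4 and 4905 and 5159 in zone 3 (difference 0.06). None of 7 photosynthesis genes, markers of green tissue, passed (median 0.69), and their summed intensity was 1792 and 1091 in zone 4 and 1407 and 756 in zone 3. Root cap markers were not analysed here.

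On standard medium the step between the zones was similar in direction and smaller in number of calls. There 1416 of 16505 probe sets passed (8.58%), 542 higher (3.28%) and 874 lower (5.3%), or 779 of the named genes (8.57%), 283 higher (3.11%) and 496 lower (5.46%). Of the 2568 calls on -Fe medium 1039 (40.5%) were also called on standard medium in the same direction, which is 73.4% of the standard calls, and 3 were called in opposite directions. The probe sets that were higher on -Fe medium had a median difference of 1.52 on -Fe medium and 0.98 on standard medium, and those that were lower had -1.48 on -Fe medium and -1.10 on standard medium. They were chosen by their values on -Fe medium, so a smaller value on the other medium follows in part from the choice. The 2 steps share no array. Over all probe sets they correlated at r = 0.79, as a description, over points that share arrays. The standard arrays were also less alike, and the number of standard calls was 198 without zone 3 replicate 2, 265 without zone 4 replicate 1, 661 without zone 4 replicate 2 and 3367 without zone 3 replicate 1.

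Several wall and microtubule genes fell on both media. GH9B13 had a difference of -5.32 on -Fe medium and -4.89 on standard medium, and THE1 had -5.04 on -Fe medium and -3.55 on standard medium. On -Fe medium 5 XTH genes, 7 TBL genes, 5 tubulin genes, 5 pectate lyases and 6 pectin methylesterases fell, and on standard medium 4, 4, 3, 5 and 7 members of these lists did. Cellulose synthase-like genes matched less, since 5 of 6 fell on -Fe medium and 1 on standard medium. Some members rose: 1 pectin methylesterase on -Fe medium and 3 on standard medium. For TBL genes and pectate lyases the rises were 2 and 1 on -Fe medium and 0 and 0 on standard medium. SWEET11 was the closest match among the named rises, with a difference of 2.25 on -Fe medium and 2.26 on standard medium. Of the auxin inactivation genes 4 passed on -Fe medium and 3 on standard medium. Iron regulators gave 2 rises on -Fe medium and 1 on standard medium, with medians of 0.77 and 0.38. Of the division genes 6 passed on -Fe medium and 1 on standard medium, with medians of 1.07 and 0.56, and no test called a difference between the media for any of them.

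**Figure D3:**
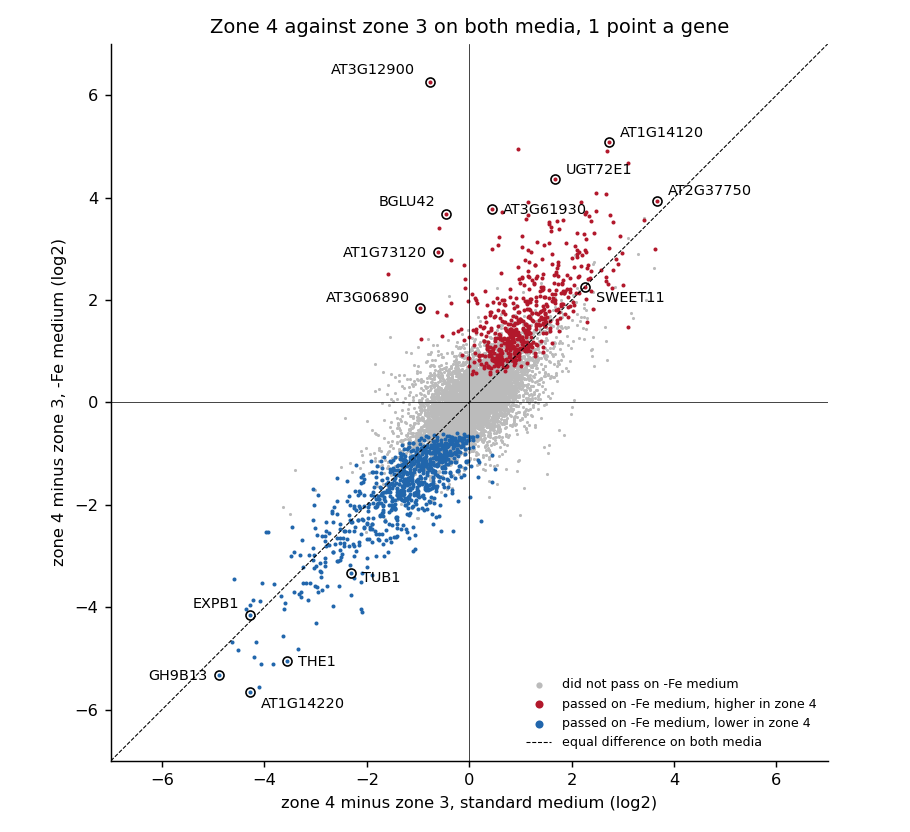
Difference between zone 4 and zone 3 (log2) of 9091 named genes on -Fe medium (y axis) and standard medium (x axis); red and blue points passed on -Fe medium, grey points did not, and the dashed line marks equal differences. Wall and tubulin genes such as GH9B13 (-5.32 and -4.89) lie near the line, while AT3G12900, BGLU42, AT1G73120 and AT3G06890 lie far above it, at or below 0 on the x axis.

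The difference between the media was tested directly, as the step on -Fe medium minus the step on standard medium. It passed for 2 of 16505 probe sets (0.0121%), both positive, and for 1 of 9091 named genes (0.011%), while 722 probe sets had an unadjusted p under 0.05. That gene was AT3G06890, of unknown function. It measured 1529 and 1299 in zone 4 and 440 and 336 in zone 3 on -Fe medium, against 27.2 and 31.6 in zone 4 and 58.6 and 69.9 in zone 3 on standard medium. Zone 4 was therefore the higher zone on -Fe medium (difference 1.85) and the lower zone on standard medium (difference -0.95), and the steps differed by 2.81 ± 0.37 (adjusted p = 0.041). The other was a probe set with no gene in the annotation used here, with a difference between the steps of 4.08 (adjusted p = 0.041). The number of such calls ranged from 0 to 3 when single arrays were left out. It was 0 without zone 4 replicate 1 or zone 3 replicate 2 on -Fe medium, and without zone 4 replicate 1, zone 4 replicate 2 or zone 3 replicate 1 on standard medium.

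Some of the iron genes had large differences between the steps that did not reach the threshold. The median difference between the steps was 2.16 over the 4 coumarin genes and 1.24 over the 10 other iron-response genes. Over the 10 iron regulators it was 0.23. AT3G12900 measured 5.17 and 10.4 in zone 4 and 12.3 and 26.1 in zone 3 on standard medium, near the offset. No rise was seen there (difference -0.77, limma adjusted p = 0.61). The estimated difference between the steps was 7.03 ± 1.18, which did not pass (adjusted p = 0.091). BGLU42 measured 226 and 130 in zone 4 and 214 and 261 in zone 3 on standard medium, and the steps differed by 4.13 ± 0.64 (adjusted p = 0.057). AT1G73120 was below 20 on all 4 of these standard arrays, and the steps differed by 3.55 (adjusted p = 0.11). None of these genes had a zone 4 level on standard medium within 10-fold of that on -Fe medium. For UGT72E1 (2.69) and AT3G61930 (3.34) the adjusted p was 1.00 and 0.57. AT2G43610 (4.10, adjusted p = 0.050), AT1G60610 (2.49, 0.050) and AT4G10510 (3.99, 0.057) also came near the threshold and were picked after their values were seen.

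**Figure D4:**
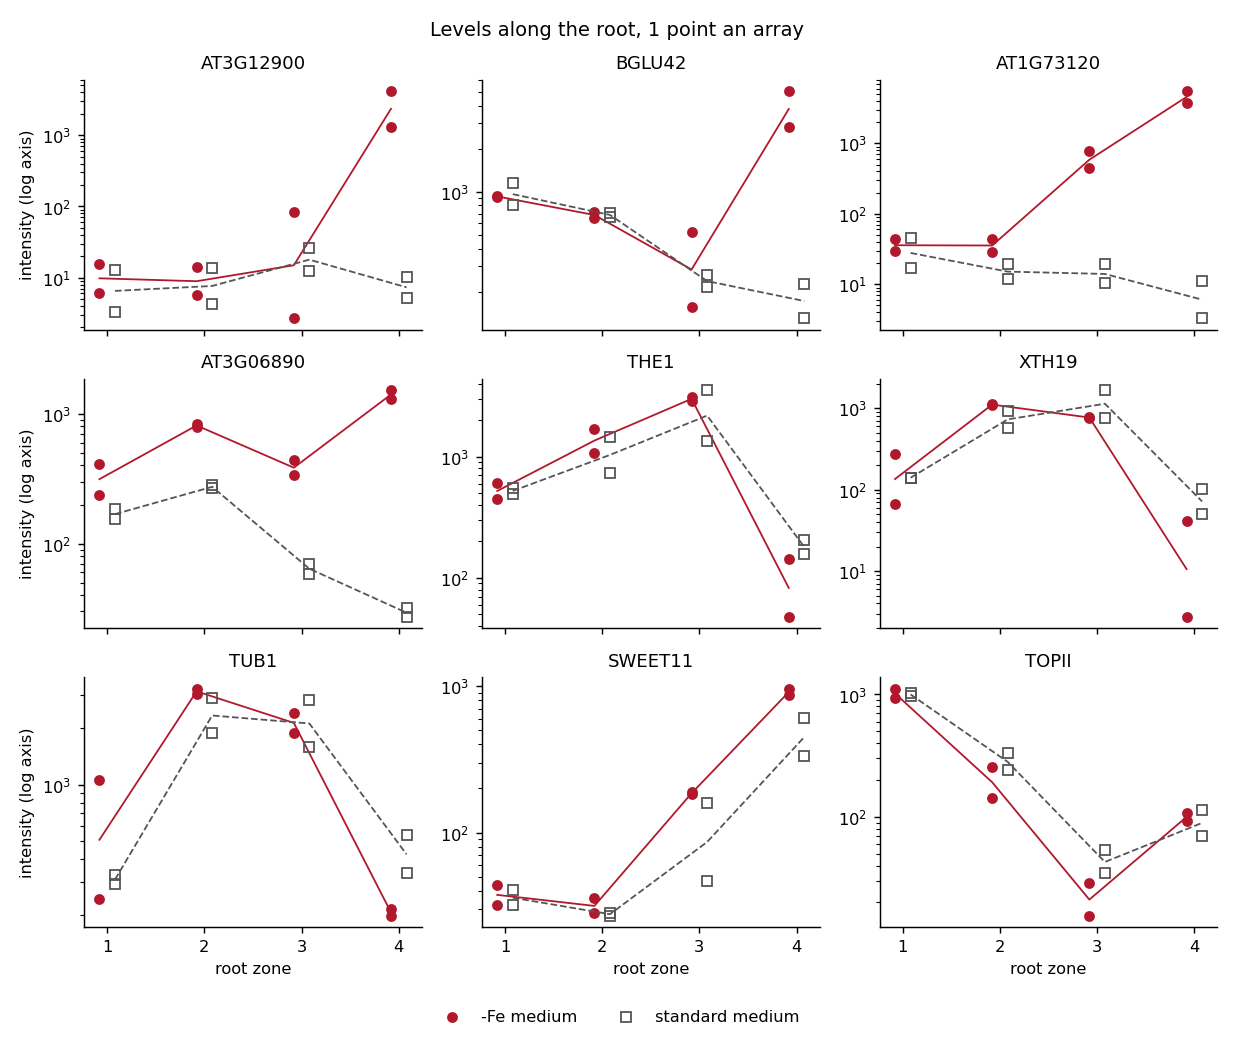
Array intensity (log axis) of 9 genes in root zones 1 to 4, 1 point an array, on -Fe medium (filled red circles, solid line) and standard medium (open grey squares, dashed line); lines join geometric means. Of the iron genes, AT3G12900 and BGLU42 are high on -Fe medium in zone 4 and AT1G73120 in zones 3 and 4, whereas THE1, XTH19 and TUB1 drop in zone 4 on both media, and TOPII is lowest in zone 3.

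The named genes also differed in what they did nearer the tip on -Fe medium. BGLU42 averaged 926 in zone 1 and 687 in zone 2, more than in zone 3, so its lowest zone on -Fe medium was zone 3. AT3G12900 averaged 10.9 in zone 1 and 9.87 in zone 2, near the offset. DRT100 averaged 1320 in zone 1 and 3347 in zone 2, and AT5G48900 averaged 634 in zone 1 and 3189 in zone 2, so both were highest before zone 3. THE1, AT1G14220 and TBL21 averaged 1393, 661 and 251 in zone 2 and were highest in zone 3.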

How the data were processed

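Total RNA from root pieces was amplified in 2 cycles, labelled with biotin and hybridised to Affymetrix arrays, per the labels' protocols. The deposited values are linear array intensities that the authors made with MAS5, per the submitters' processing notes; a program version, detection calls and a genome build were not given in the sources used here. Values between their extremes average about 250 on each array, as a global scaling gives. The 64 control probe sets were left out of the tests, and 22746 remained. The platform annotation tied 13513 of them to 1 gene and 503 to more than 1, and left 8730 out. For 13436 of the 13513 the name was updated through RefSeq (TAIR10.1), and for 77 the platform's name stayed. No sequence tables or genome came with the series.

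The scale used was log2(intensity + 7.73). The number 7.73 is the 20th percentile of all intensities, and no normalization between arrays was added. A probe set entered the tests if 2 or more arrays put it above their own 40th percentile. This held for 16505, of which 9167 stood for 9091 single genes, the brightest probe set being used for a gene. In R 4.3.3, limma 3.58.1 fitted the 8 group means to the 16 arrays together (8 residual degrees of freedom), and its variance prior followed a trend with intensity. P-values were adjusted by Benjamini-Hochberg over all probe sets of each contrast, at 0.05. Contrasts were zone 4 minus zone 3 on -Fe medium, the same on standard medium, and the difference of the 2. The number of arrays limits the precision. The fit was tested on simulated data with known changes. Tables and figures were made with Python 3.11.15, pandas 2.3.3 and matplotlib 3.10.9.

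Named genes were the 14 largest rises and falls on -Fe medium with arrays that do not overlap, those past the threshold for the difference between media, up to 6 members of each list, and 10 genes of the iron response and root hairs. The members and lists were chosen with earlier results of these data known, and the wall, microtubule, peroxidase, transporter, auxin, division and further iron lists were written after the files could be read. Genes without a symbol were assigned to lists, and given functions, from general knowledge of their loci. Lists are described by counts and medians, with no test of a list. The labels do not say what a replicate number shares, so it was not used as a block. Alternatives changed the offset, normalization, filter, variance prior, weights, arrays in the fit and replicates.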

Additional observations from a re-analysis of the deposited data

Results flagged for a closer look

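The 2 probe sets past the threshold had a zone step that differed between the media by the test of the difference itself. AT3G06890 was higher in zone 4 than in zone 3 on -Fe medium and lower in zone 4 on standard medium, with a difference between the steps of 2.81 on the log2 scale (adjusted p = 0.041). The other probe set, which has no gene in the annotation used here, measured 986 and 452 in zone 4 and 84.0 and 46.1 in zone 3 on -Fe medium, against 24.0 and 25.5 in zone 4 and 56.8 and 42.8 in zone 3 on standard medium, and its steps differed by 4.08 (adjusted p = 0.041). The sample descriptions give different times after transfer for the media, so medium and time cannot be told apart if they are right.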

How the results depend on the processing

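The number of probe sets that passed between zone 4 and zone 3 on -Fe medium was 2568 and lay between 2169 and 3346 under the 9 other settings of offset, normalization, filter, variance prior, weights and arrays in the fit. It ranged from 837 to 1540 when 1 array was left out, where the lone array of a group is assumed to vary like the others. On standard medium it was 1416, fell to 328 with array weights and 0 in a fit of the 4 arrays alone (2609 at an unadjusted p under 0.05), and ranged from 198 to 3367 with single arrays left out. The difference between the media gave 2 calls, 12 with 2 times the offset, 0 without an offset, 8 with median centring, 6 with quantile normalization, 4 with the filter at the 60th percentile, 5 without the intensity trend, 0 with array weights, 0 with the 8 arrays alone, and 0 to 3 with single arrays left out. The causes were not tested. The labels do not say whether same-numbered zones came from the same roots. Same-numbered deviations from the group means correlated at 0.38 between zones 4 and 3 on -Fe medium and 0.23 on standard medium, and at -0.13 to 0.46 over all pairs of groups. With the replicate block the counts were 2948 on -Fe medium, 1804 on standard medium and 4 for the difference. Of 532 values of 38 named genes under alternatives, 510 kept direction and side of the threshold and 0 reversed. The call was lost in 16 (6 genes) and gained in 6 (5 genes: BHLH101, AT3G58060, AT1G74770, EXPA7 and EXPA18). Most of the 38 were chosen as the largest rises and falls, and genes named only as members of a list were left out. Of those left out, EXPA4, AT3G05620, TUB6, MSRB3, JAL33 and the 1 cell cycle gene that passed lost their call whichever array was left out, as given above. Of 360 list counts under alternatives, 97 moved by over 1.5 times, 87 of them with an array left out; these list alternatives were chosen after seeing the data. The MAS5 detection calls were not used here, so a dim level is not told apart from background.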

Other observations

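Some further enzyme families held members of both directions between zone 4 and zone 3 on -Fe medium. The counts below stand against 6.14% of all named genes that rose and 8.95% that fell. Of 21 tested serine carboxypeptidase-like genes, 3 rose and 4 fell (median -0.26), or 1 or 2 and 2 or 3 when an array was left out. The gene scpl40 measured 33.0 and 27.9 in zone 4 against 551 and 586 in zone 3 (difference -3.92, adjusted p = 0.00041), while scpl28 measured 321 and 537 in zone 4 against 39.6 and 28.6 in zone 3 (difference 3.35, adjusted p = 0.0027). Both passed whichever array was left out, as did SCPL27, which fell by 2.35. Among dirigent genes, whose proteins steer the coupling of lignan and lignin units, AT4G11190 measured 3683 and 5701 in zone 4 against 464 and 315 in zone 3 and rose by 3.56, and AT4G11210 measured 347 and 204 in zone 4 against 2057 and 1448 in zone 3 and fell by 2.66. These were the 2 of 9 tested that passed, and neither did without zone 4 replicate 2. Cytochrome P450 genes gave 3 rises and no fall of 11 tested (median 0.73), led by CYP71B23 at 183 and 256 in zone 4 against 26.0 and 31.2 in zone 3 (difference 2.63), and no call was left without zone 3 replicate 1 or zone 4 replicate 2.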
